A study of Saccharomyces cerevisiae with 31 samples.

Results

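The glycogen metabolism enzymes of budding yeast (Saccharomyces cerevisiae) are described here by 9 genes, found by name in the authors' deposited table of scaling scores, which holds 6713 genes. All 9 were in the table, 7 for synthesis (GLG1, GLG2, GSY1, GSY2, GLC3, UGP1 and PGM2) and 2 for breakdown (GPH1 and GDB1), and all 9 had a score in each of the 6 series. The 31 RNA-seq libraries come from cells grown in rich medium with ethanol and mixed with a known number of Candida albicans cells before RNA was extracted, and every series, controls included, was given 1NM-PP1, a bulky inhibitor that blocks the analog-sensitive kinase Cdc28-as. Cdc28-as cells, whose cell cycle kinase carries the analog-sensitive change, were elutriated (sorted by size in a centrifuge) before the inhibitor in experiment 1 (5 libraries, 15.23 to 50.77 fl of cell size), experiment 2 (3 libraries, 14.92 to 41.8 fl) and experiment 3 (3 libraries, 18.61 to 66.46 fl). A time course of Cdc28-as cells without elutriation covered 21.56 to 44.02 fl in 8 libraries. The controls were wild-type (WT) cells, elutriated (6 libraries, 2 to 7 h) or not (6 libraries, 0 to 6 h). The labels do not say whether the elutriation experiments came from separate cultures, so p-values measure only the spread between these 3 series.

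Glycogen is the branched glucose polymer in which yeast stores carbon when growth slows, and it is used again when growth resumes. Phosphoglucomutase (PGM2) and UDP-glucose pyrophosphorylase (UGP1) make UDP-glucose, the glycogenins GLG1 and GLG2 prime a new chain by glucosylating themselves, the synthases GSY1 and GSY2 lengthen it and the branching enzyme GLC3 adds its side chains. Glycogen phosphorylase (GPH1) removes glucose units from the chain ends and the debranching enzyme (GDB1) opens the branch points. Many genes of the pathway are known targets of Msn2 and Msn4, stress transcription factors that bind the stress response element.

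The score is a single value per gene and series, and no values per library were used here. In experiments 1 and 3 and in the WT controls it behaved as the slope of abundance relative to the first library, with size in fl as the axis of the arrested cells and hours as that of WT cells: genes at the score that detection in the first library alone would give (within 1e-07) numbered 104 and 111 in experiments 1 and 3 and 96 and 44 in the elutriated and unelutriated WT controls. The same count was 2 in experiment 2 and 3 in the time course, which does not bear the reading out there, and for these it is an assumption. A score of 0 then means an unchanged level on the authors' scale, but that scale, not given in the sources used here, could be a library share or an amount set against the Candida RNA. Size, time in arrest and time since elutriation move together in these cells and cannot be told apart, nor, in these bulk samples, can a change in the mix of cells and a change in RNA per cell. The kinase gene CDC28 itself scored 0.286, 0.127 and 0.0875 per fl in experiments 1, 2 and 3 and -0.00313 per fl in the time course. Each value lay above the middle 80% of genes in its series. That range ended at 0.0801, 0.0625 and 0.0264 per fl in experiments 1, 2 and 3, and at -0.00723 per fl in the time course.

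The stress response element was looked for upstream of the 9 genes because most of them scored alike in the elutriated cells. Its letters AGGGG, on either strand, lay within 500 bases of the start codon in 8 of the 9 genes and at least 2 copies lay there in 7, against 34.0% and 8.12% of 6019 yeast genes with a window of this length in R64. PGM2 held 5 copies, UGP1 4, GLC3 3, and GSY1, GSY2, GPH1 and GLG2 2 each, while GDB1 held 1 and GLG1 none. The core of the post-diauxic shift element, AGGGAT, no copy of which is also a copy of AGGGG, lay once upstream of GLG1 and UGP1, against 15.4% of all genes. A match is a description of the letters and not a shown binding site. Whether copies and scores go together was not tested. GLG1 scored like most of the 9 and held none, GLG2 did not and held 2, and the other genes held 1 to 5. The stretches below run 5′ to 3′ toward the gene and are shown because they hold every copy found upstream of the gene with most copies, of the branching enzyme, of the leading synthase and of the phosphorylase. Capitals mark AGGGG or its reverse complement CCCCT.
PGM2 (chrXIII:477808-478022, minus strand, 416 to 202 bases before the start codon): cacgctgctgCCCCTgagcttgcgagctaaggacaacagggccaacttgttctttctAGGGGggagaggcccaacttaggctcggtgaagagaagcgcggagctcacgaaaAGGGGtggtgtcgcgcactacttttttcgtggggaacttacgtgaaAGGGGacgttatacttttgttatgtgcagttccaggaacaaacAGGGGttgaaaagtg
GLC3 (chrV:132736-132921, plus strand, 384 to 199 bases before the start codon): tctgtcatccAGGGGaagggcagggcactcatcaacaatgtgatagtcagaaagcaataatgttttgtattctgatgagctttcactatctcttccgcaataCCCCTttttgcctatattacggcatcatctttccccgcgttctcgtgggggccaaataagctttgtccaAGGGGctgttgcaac
GSY2 (chrXII:660329-660534, plus strand, 387 to 182 bases before the start codon): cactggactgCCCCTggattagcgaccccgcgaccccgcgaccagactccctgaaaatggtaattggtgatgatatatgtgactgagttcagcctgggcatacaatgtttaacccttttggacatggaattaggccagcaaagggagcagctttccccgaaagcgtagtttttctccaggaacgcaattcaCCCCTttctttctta
GPH1 (chrXVI:860939-860994, plus strand, 367 to 312 bases before the start codon): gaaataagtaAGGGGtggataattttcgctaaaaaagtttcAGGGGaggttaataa
None of the 4 stretches overlaps an annotated coding sequence of R64.

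**Figure D1:**
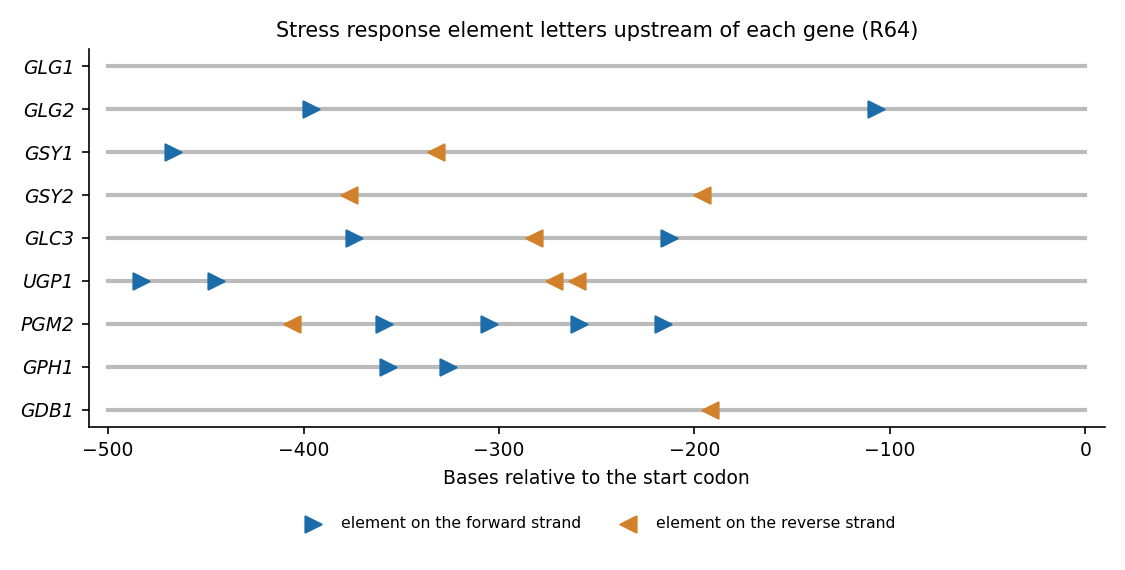
Copies of the letters AGGGG (blue, right-pointing) or CCCCT (orange, left-pointing) in the 500 bases before the start codon of each gene, with position in bases on the x axis. PGM2 holds 5 copies between 406 and 216 bases before the start codon, and GLG1 holds none.

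In the elutriated, arrested cells the question was how each enzyme's transcript scaled with size beside the typical gene. Of the 9 genes, 8 scored below the median gene in all 3 experiments, as did 22.5% of the 5771 genes scored in all 3, and the same 8 scored below 0 in all 3, as did 12% of those genes. The exception was GLG2, and none of the 9 scored above the median gene in all 3, as 22.3% of genes did. The 9 genes had a median score of -0.00828, -0.0164 and -0.00997 per fl in experiments 1, 2 and 3, where the series median over all scored genes was 0.00701, 0.0108 and 0.00132 per fl. None of the 9 passed the test across experiments: limma's moderated test with Benjamini-Hochberg adjustment called 0 of 5771 genes (0%), 519 genes had an unadjusted p under 0.05, and 4 of the 9 (GLG1, GSY2, GLC3 and PGM2) were among them, all 4 below the median gene, as were 3.73% of all genes.

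Among the precursor enzymes, PGM2, the major phosphoglucomutase, scored -0.0139, -0.0193 and -0.00987 per fl in experiments 1, 2 and 3. Its mean lay at -0.0211 per fl relative to the median gene (limma SE 0.00688, adjusted p = 0.460, n = 3). UGP1 scored -0.000297, -0.0125 and -0.00501 per fl, so its level was nearly flat in experiment 1 and the lowest score came in experiment 2. Relative to the median gene its mean was -0.0126 per fl (limma SE 0.00690, adjusted p = 0.471), and -0.00722 per fl without experiment 2.

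The 2 glycogenin genes went apart. GLG1 scored -0.0123, -0.0233 and -0.0156 per fl, with a mean of -0.0238 per fl relative to the median gene (limma SE 0.00684, adjusted p = 0.460), close to that of GLC3 below. GLG2 scored 0.149, 0.00494 and 0.00664 per fl, above 0 in all 3 experiments, as did 35.5% of all genes, and below the median gene in experiment 2 alone (percentile 39.6). Its value in experiment 1 stood far above the other 2, and with a median of 10.5 reads it is the least covered of the 9. Relative to the median gene its mean was 0.0470 per fl with experiment 1 and -0.000605 per fl without it (limma SE 0.0356 and adjusted p = 0.531 with all 3).

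The synthase genes both scored below 0. GSY2, the main glycogen synthase, scored -0.00955, -0.0164 and -0.0160 per fl, with a mean of -0.0207 per fl relative to the median gene (limma SE 0.00614, adjusted p = 0.460). GSY1 scored -0.0000773, -0.00149 and -0.00997 per fl, close to 0 in experiments 1 and 2 and lower in experiment 3, with a mean of -0.0106 per fl relative to the median gene (limma SE 0.00574, adjusted p = 0.471). GSY1 therefore scored above GSY2 in each of the 3 experiments, by 0.00948, 0.0149 and 0.00607 per fl. GLC3, the branching enzyme, scored -0.0124, -0.0207 and -0.0171 per fl, the lowest of the 9 in experiment 3 and the second lowest in experiments 1 and 2, with a mean of -0.0235 per fl relative to the median gene (limma SE 0.00639, adjusted p = 0.460).

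Both breakdown genes lay near the synthesis genes. GPH1 scored -0.00579, -0.0165 and -0.0100 per fl, and GDB1 -0.00828, -0.0147 and -0.00966 per fl, so the 2 genes differed by 0.00250, 0.00171 and 0.000341 per fl in experiments 1, 2 and 3. Their means relative to the median gene were -0.0175 per fl for GPH1 (limma SE 0.00673, adjusted p = 0.460) and -0.0176 per fl for GDB1 (limma SE 0.00643, adjusted p = 0.460). As medians relative to the median gene of each series, synthesis genes scored -0.0166, -0.0271 and -0.0113 per fl and breakdown genes -0.0140, -0.0264 and -0.0112 per fl in experiments 1, 2 and 3. The breakdown genes lay inside the range of the synthesis genes in all 3.

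**Figure D2:**
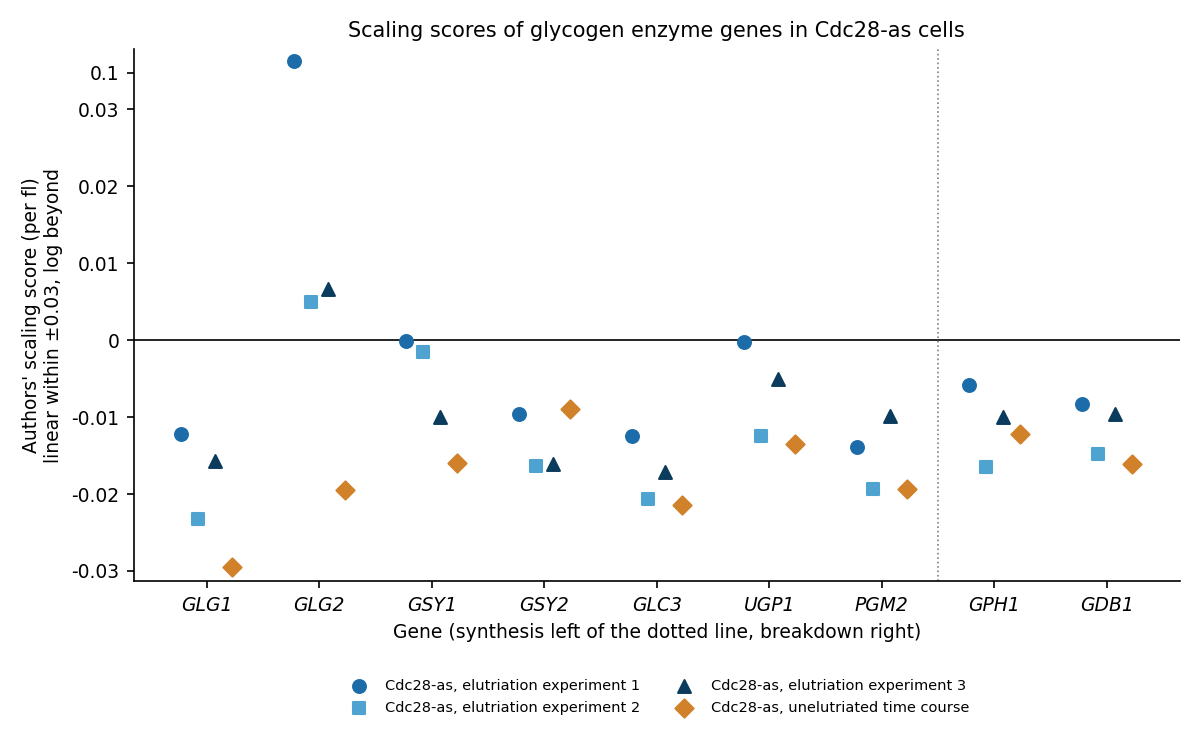
Authors' scaling score (y axis, per fl, linear within ±0.03 and logarithmic beyond) of each gene in the 4 Cdc28-as series, 1 point per series. All genes but GLG2 lie below 0 in all 4 series, and GLG2 reaches 0.149 per fl in elutriation experiment 1.

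Taken over the size span of a series, the fitted line gives the change as a multiple of the starting level. In experiment 3, the series with the widest span (47.85 fl), this product was -0.820 for GLC3, -0.768 for GSY2 and -0.749 for GLG1, and between -0.240 (UGP1) and -0.479 (GPH1) for the 5 other genes that scored below 0. These are products of a fitted slope and not differences measured between libraries. A second reference helps to place them. If the scale were a share of the library and total RNA grew in proportion to size, a transcript with a constant number of copies per cell would score -0.0185, -0.0231 and -0.0154 per fl in experiments 1, 2 and 3. None of the 9 scored below that value in experiment 1, where 11.6% of all scored genes did. GLG1 did in experiment 2 (2.35% of genes), and GLG1, GSY2 and GLC3 did in experiment 3 (6.18% of genes). For experiment 2 this rests on the assumed reading of the score.

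The unelutriated time course asked the same question in cells not sorted by size. Here 95.3% of all genes, and all 9 glycogen genes, scored below 0, and the median gene scored -0.0201 per fl. Against that median 7 of the 9 scored above the median gene, where 50% of all genes lie by construction. GSY2 scored -0.00898, GPH1 -0.0122, UGP1 -0.0134, GSY1 -0.0160 and GDB1 -0.0161 per fl, which placed them between the percentile 66.5 (GDB1) and the percentile 87.0 (GSY2) of the series. PGM2 (-0.0193 per fl) and GLG2 (-0.0195 per fl) lay close to the median gene. GLC3 (-0.0214 per fl) and GLG1 (-0.0295 per fl) lay below it. The median of the breakdown genes, -0.0141 per fl, was above that of the synthesis genes, -0.0193 per fl, but again inside their range.

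Below the median gene in all 3 elutriation experiments and above it in the time course lay 6 of the 9 genes (GSY1, GSY2, UGP1, PGM2, GPH1 and GDB1). Of the 5758 genes scored in these 4 series, 530 (9.2%) did so. This share too counts 2 conditions, and 8 of the 9 genes already met the condition on the elutriation experiments. The same was true of 1301 of the 5771 genes scored in all 3. GSY2 had the widest gap, from the percentiles 22.2, 7.21 and 5.49 in experiments 1, 2 and 3 to 87.0 in the time course. In deposited score GSY2 went from -0.00955, -0.0164 and -0.0160 per fl in experiments 1, 2 and 3 to -0.00898 per fl in the time course. The median gene went from 0.00701, 0.0108 and 0.00132 to -0.0201 per fl, a larger step each time. Starting sizes differ between series, and the reading of the score is assumed for experiment 2 and the time course. The time course is a single series, so the difference from the elutriated cells was not tested.

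In the WT controls the axis is time and not size, so only ranks within a series can stand beside those of the arrested cells. In the elutriated WT control 6 of the 9 genes scored above the median gene (50% of all genes). GDB1 scored 9.51, UGP1 7.20, GLG1 3.42 and PGM2 3.01 per hour, at percentiles from 85.8 to 93.2. GPH1 (0.375 per hour), GSY1 (0.167), GLG2 (0.127) and GSY2 (0.0707) lay between the percentiles 41.0 and 66.4, and GLC3 (-0.0000871 per hour) at 30.4. The breakdown median of 4.94 per hour stood above the synthesis median of 0.167 per hour. GDB1 lay above all 7 synthesis genes and GPH1 inside their range. This series spread far more widely than the others, with 80% of genes between -0.143 and 5.30 per hour, and a gene with few reads in its first library can score high there. Read counts of the WT libraries were not used here.

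In the unelutriated WT control 6 of the 9 genes scored above the median gene (50% of all genes), all 6 of them for synthesis. GLG1 scored 0.615, GSY2 0.274, PGM2 0.223 and GLG2 0.159 per hour, all at or above the percentile 92.0. GLC3 (-0.00648), UGP1 (-0.0264) and GSY1 (-0.0441 per hour) lay between the percentiles 47.7 and 63.6. The breakdown genes scored -0.102 (GPH1) and -0.0517 per hour (GDB1), at the percentiles 24.2 and 44.7. The synthesis median of 0.159 per hour stood against a breakdown median of -0.0768 and a median gene of -0.0390 per hour, and both breakdown genes lay below all 7 synthesis genes. In the elutriated WT control the synthesis and breakdown medians stood in the opposite order. With 1 score per gene and 2 breakdown genes, either order is a description and was not tested.

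Across both WT controls GLG1, UGP1 and PGM2 scored above the median gene in each and below it in all 3 elutriated Cdc28-as experiments. Of the 5296 genes scored in all 6 series, 350 (6.61%) did so. That share counts both conditions, and 8 of the 9 genes already met the condition on the elutriated cells. So did 1301 of the 5771 genes scored in all 3 experiments. GLG1 ranked at the percentiles 18.6, 2.28 and 5.98 in experiments 1, 2 and 3, and at 86.9 and 99.0 in the elutriated and unelutriated WT controls. PGM2 ranked at 16.6, 4.72 and 15.3, and at 85.8 and 94.6. GLC3, the other gene lowest in the arrested cells, ranked at 30.4 and 63.6 in the WT controls and so did not share that pattern.

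**Figure D3:**
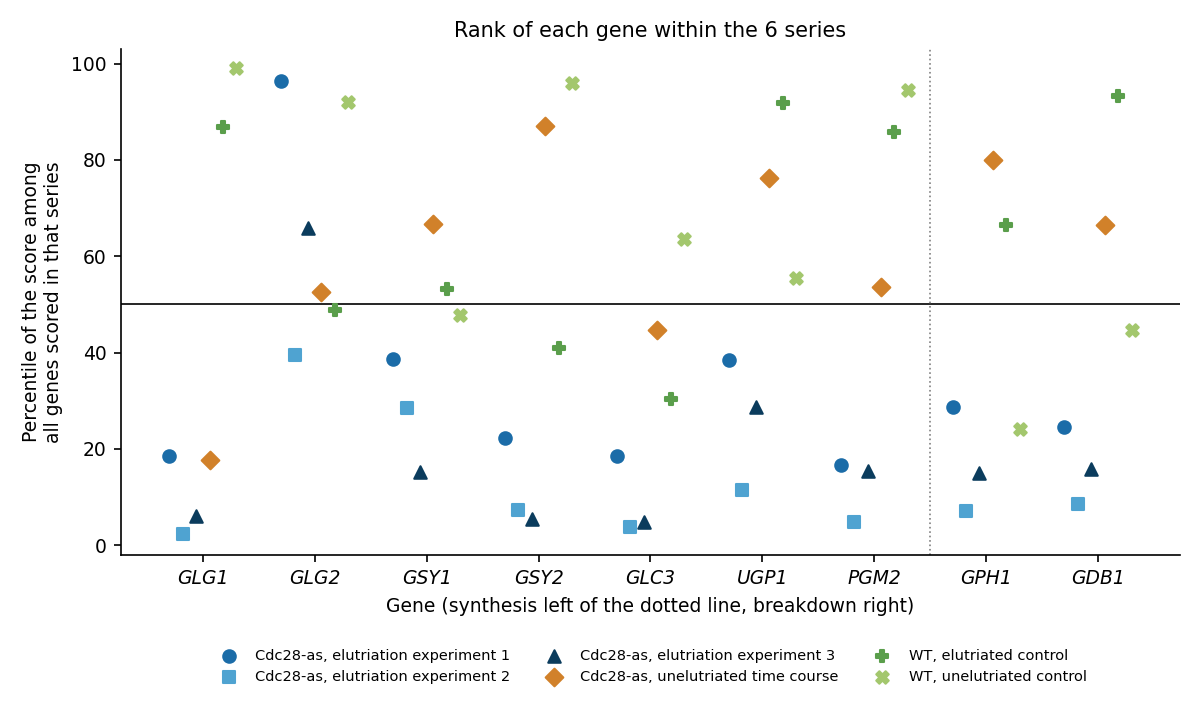
Percentile of each gene's score among all genes scored in a series (y axis), 1 point per series, for the 3 elutriated and 1 unelutriated Cdc28-as series and the 2 WT controls; the line marks the median gene. The blue points of the elutriation experiments lie below the line for every gene but GLG2, while GSY2, UGP1, PGM2, GPH1, GDB1 and GSY1 have their time course point above it.

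The authors' median read count in experiment 1 ran from 10.5 (GLG2) to 123.5 reads (GPH1), with a median of 65 over the 9 genes and 19 over all 6713. Per kb of gene length, PGM2 had 49.4, GPH1 45.6, GSY2 45.6, UGP1 43.3 and GLC3 25.8 reads, above the 16.4 of the median gene among 6022 with an annotated length. GLG1 (19.2), GSY1 (17.2) and GDB1 (15.2 reads per kb) lay near that median and GLG2 (9.19) below it. How the authors took this median over libraries was not stated, so neighbours in this order cannot be told apart by an error of their own.

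**Figure D4:**
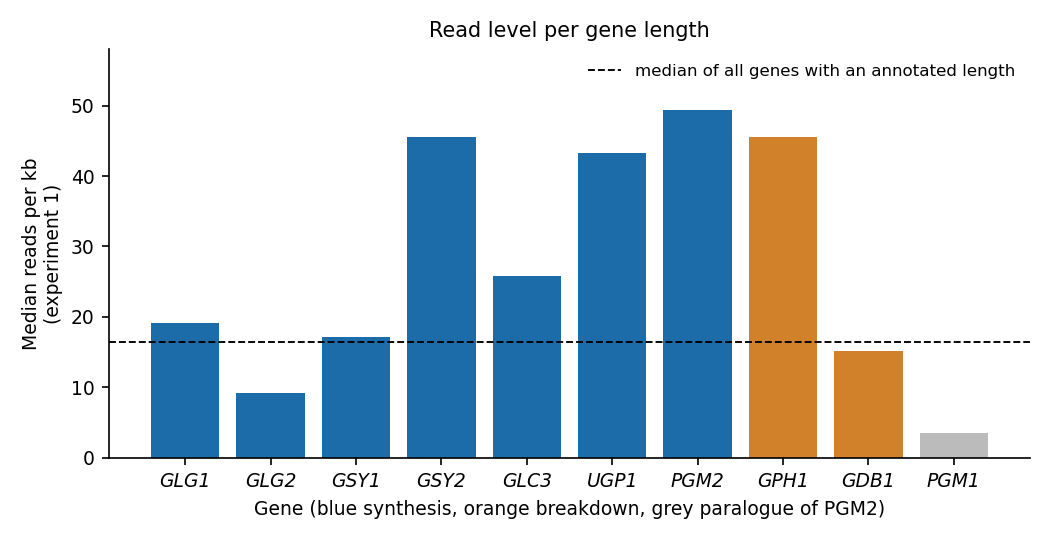
Median reads per kb of gene length in elutriation experiment 1 (y axis) for the 9 genes and for PGM1, the paralogue of PGM2; the dashed line is the median of 6022 genes. PGM2, GPH1, GSY2 and UGP1 stand between 43.3 and 49.4 reads per kb, and PGM1 at 3.50.

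Each synthesis step with a gene copy had a more and a less abundant form. GSY2 had 45.6 reads per kb and GSY1 17.2, PGM2 49.4 and PGM1 3.50, and GLG1 19.2 and GLG2 9.19. In all 3 elutriation experiments the more abundant form scored below the less abundant one: GLG1 below GLG2 by 0.162, 0.0282 and 0.0223 per fl, and PGM2 below PGM1 by 0.0278, 0.0219 and 0.0128 per fl, beside the GSY2 and GSY1 values above. PGM1 had a median of 6 reads and GLG2 of 10.5, so their scores rest on few reads. In the time course the PGM2 and PGM1 scores were equal to the third digit (-0.0193 per fl each). GSY2 scored above GSY1 there, and GLG1 below GLG2 by 0.00996 per fl. In the elutriated and unelutriated WT controls GLG1 scored above GLG2 by 3.29 and 0.456 per hour, and PGM2 above PGM1 by 3.03 and 0.224. GSY2 scored below GSY1 by 0.0961 per hour in the elutriated control and above it by 0.318 in the unelutriated one. Over the aligned bases, gaps left out, coding sequences are 73.2% (GSY1 and GSY2), 72.8% (PGM2 and PGM1) and 68.3% (GLG1 and GLG2) identical in R64. For GLG1 and GLG2 only 1124 bases aligned, of coding lengths of 1851 and 1143 bases. The longest run of identical bases is 23, 20 or 9 bases for PGM, GSY and GLG. No other annotated gene overlaps any of the 9 in R64.

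Other genes of the pathway were taken from 4 lists, and limma called 0 genes in each. In the list of glycogen regulators, 12 of 23 genes scored below the median gene in all 3 elutriation experiments and 2 above it (22.5% and 22.3% of all genes), with a median of mean scores of -0.00891 per fl relative to the median gene, against -0.0176 for the 9 enzymes and 0.00249 over all genes tested. GIP2, a regulatory partner of the phosphatase Glc7 that activates glycogen synthase, scored -0.0159, -0.0214 and -0.0131 per fl. TPK2, a catalytic subunit of protein kinase A, which restrains glycogen storage, scored -0.0154, 0.000614 and -0.0120 per fl, and the PAS kinase gene PSK1 -0.0111, -0.00635 and -0.0102 per fl. In the same list TPK3 scored above 0 in all 3 experiments (0.00722, 0.0646 and 0.00318 per fl). PSK2 scored 0.0444, 0.0454 and -0.00842 per fl. TPK3 and PSK2 were named after their values were seen. The 2 genes above the median gene in all 3 were SNF1 (0.0147, 0.0153 and 0.00485 per fl), the kinase that promotes glycogen storage, and GLC7 (0.00979, 0.0314 and 0.00510 per fl), the phosphatase itself; they were named after their values were seen.

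Trehalose, the other storage carbohydrate of yeast, is made from the same UDP-glucose, and all 7 of its genes scored below the median gene in all 3 experiments, as did 22.5% of all genes (median of means -0.0169 per fl). TPS2, the trehalose-6-phosphate phosphatase, scored -0.0138, -0.0208 and -0.0154 per fl, and TSL1, a regulatory subunit of the complex, -0.0158, -0.0146 and -0.0133 per fl. TPS1, the synthase, scored -0.00915, -0.0189 and -0.0141 per fl, and the regulatory subunit TPS3 -0.00663, -0.0121 and -0.0117 per fl. Of the genes that supply glucose phosphate or use it in side routes, 3 of 9 tested scored below the median gene throughout, a share near the 22.5% of all genes, and none above (median of means -0.000220 per fl); HXK1, a hexokinase, scored -0.0114, -0.00988 and -0.00664 per fl and EMI2 0.00667, 0.00655 and -0.00268 per fl.

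The other users of UDP-glucose were mixed, with 4 of 7 tested genes below the median gene throughout and 2 above, against 22.5% and 22.3% of all genes (median of means -0.00752 per fl). FKS1, the glucan synthase of growing cell walls, scored 0.193, 0.109 and 0.0303 per fl, at or above the percentile 91.7 in each experiment. Its paralogue GSC2, known as the stress and sporulation form, scored -0.00922, 0.0102 and -0.00342 per fl. KRE6, a glucan synthesis gene, scored -0.00437, -0.00342 and -0.0104 per fl, and KRE5 0.00905, 0.0178 and 0.00793 per fl.

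**Figure D5:**
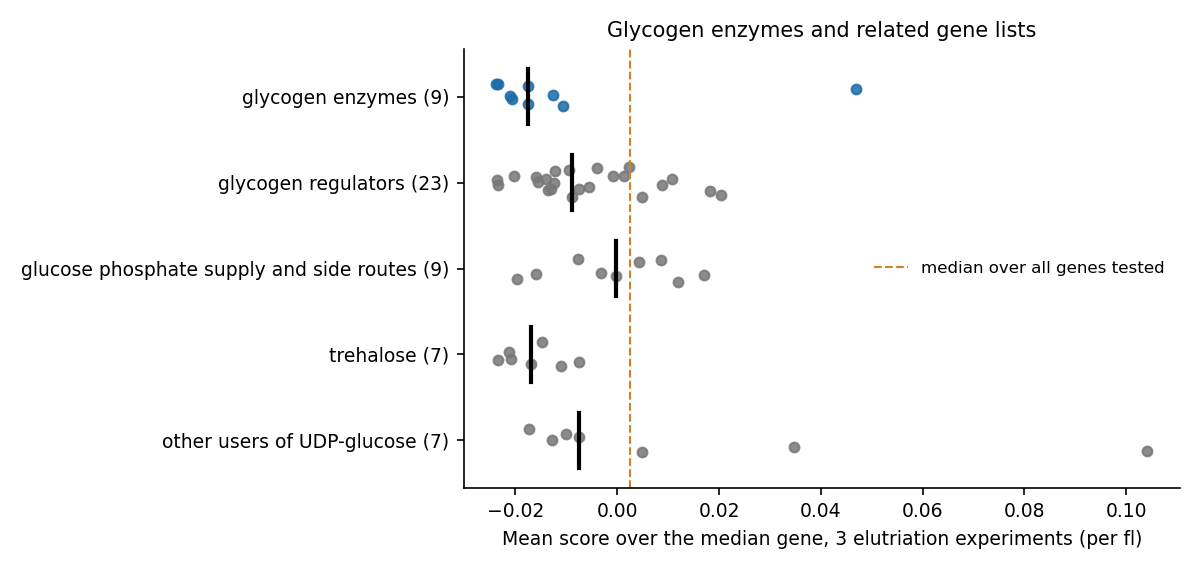
Mean score relative to the median gene over the 3 elutriation experiments (x axis, per fl) for the 9 glycogen enzyme genes and the tested genes of 4 related lists, 1 point per gene, with the list median as a black bar and the median over all genes tested as a dashed line. The glycogen and trehalose medians stand at -0.0176 and -0.0169 per fl, and the separate glycogen point at 0.0470 is GLG2.

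The genes whose ranks over the 6 series were nearest to the median ranks of the 9 enzymes, among 4093 genes with at least 10 reads, were TPS1, TFS1, YER079W, YKL091C and JIP4. Their distances, in percentile points over the 6 series, were 11.8, 13.7, 14.0, 17.4 and 17.8. The 9 genes themselves lay at distances from 32.8 (GDB1 and GSY1) to 64.9 (GLG1) and 101 (GLG2). The 5 genes were picked for the smallest distance, so their being nearer is no result about the 9. In the order of the 4093 genes GDB1 ranked 41, GSY1 42, UGP1 59, PGM2 104 and GPH1 133. GLC3 ranked 163, GSY2 228, GLG1 698 and GLG2 2470. The reference is the median of the ranks of these same 9 genes, so their nearness to it is partly built in. TPS1 ranked at 22.7, 5.01 and 8.22 in experiments 1, 2 and 3, at 67.0 in the time course and at 67.0 and 54.4 in the elutriated and unelutriated WT controls.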

How the data were processed

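Bowtie2 alignment of the 31 RNA-seq libraries against R64 is named in the submitters' processing notes, whereas counting, normalization and the score formula were not given in the sources used here. In 1 table the authors deposited a scaling score per gene and series and a median read count per gene, a signal the authors gave for experiment 1 that is not whole for 2779 genes. Depth per library is unknown. Genes were matched by name, and lengths, coordinates and upstream sequence come from RefSeq R64.

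The median over 5771 genes was taken off each elutriation experiment (0.00735, 0.0110 and 0.00178 per fl), and each gene was tested against 0 with limma 3.58.1 (R 4.3.3; two-sided, Benjamini-Hochberg over all genes, threshold 0.05; checked on simulated data). List medians for a single series use the median of all genes scored in it. Percentiles are ranks among all genes scored in a series. Members and lists were chosen with earlier results of these data known, as was the search for stress response elements. From each list up to 4 genes were named, those with the largest mean among genes on 1 side of the median gene in all 3 experiments and at least 10 reads. The 5 nearest genes by rank were also named. A gene that this rule picks among the glycogen regulators is not reported here. PGM3 was not analysed here.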

Additional observations from a re-analysis of the deposited data

Results flagged for a closer look

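Some genes lay below the median gene in every elutriated Cdc28-as experiment and above it in the time course or in both WT controls. These differences were not tested. Only genes with such a pattern are listed, so each gap is positive by construction. Among all genes scored in the series concerned, 9.2% had the pattern for the time course, a single series, and 6.61% for both WT controls. Between elutriated and unelutriated arrest, the gap from the highest elutriated percentile to that of the time course was 64.8 points for GSY2, 51.3 for GPH1, 42.1 for GDB1, 37.8 for UGP1, 37.0 for PGM2 and 28.0 for GSY1. Between elutriated arrest and both WT controls, the gap to the lower WT percentile was 69.1 points for PGM2, 68.3 for GLG1 and 17.1 for UGP1. The axes differ, size in the arrested cells and time in WT cells.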

How the results depend on the processing

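Under 9 alternatives (other centring, a filter at 10 reads, ranks, score times span, the time course added, each experiment left out) limma called 0 genes, and the 9 means kept their direction with 1 exception: GLG2 ran from -0.000605 per fl without replicate 1, the first experiment (adjusted p = 0.982 by limma), to 0.0735 per fl without replicate 2. On the rank scale the lowest adjusted p of GLG1, GSY2, GLC3 and PGM2 by limma was 0.0875. Without centring UGP1 had a mean of -0.00593, GSY1 -0.00385, GPH1 -0.0107 and GDB1 -0.0109 per fl, each over 1.5 times nearer to 0. With the time course added, GSY2 had a mean of -0.0127, GPH1 -0.0111, UGP1 -0.00780 and GSY1 -0.00689 per fl. These means too were over 1.5 times nearer to 0. GLG1 had the lowest mean, but on ranks, score times span and without replicate 2 GLC3 did. The count of genes below the median gene in every experiment was 8 with other centring, the read filter, each experiment left out, and 0 in place of the median gene, and 2 when the time course was added as a series. Over the 3 experiments the synthesis median ran from -0.0221 to -0.0143 per fl and the breakdown median from -0.0205 to -0.0130 per fl with an experiment left out. Alternatives for the median percentiles, the comparison with 0 and the count with the time course were chosen after seeing the data; in the elutriated WT control the median percentile of 66.4 became 57.3 among genes with at least 10 reads and 76.1 without GLG2, and with that read filter the median percentile went from 7.21 to 3.91 in experiment 2 and from 15.1 to 8.58 in experiment 3. No paired analysis was possible because the table holds 1 score per series and none per library. Counting error could not be given, since single libraries have no counts in the table used.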
